A study of Mus musculus with 2 samples.

Results

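The cytochrome P450 enzymes that build steroid hormones were examined in adrenal glands of mouse pups. The genes were taken by symbol: Cyp11a1, Cyp21a1, Cyp11b1, Cyp11b2, Cyp17a1 and Cyp19a1, which are 6 of the 55536 annotated genes in the tables. All 6 were found and joined to the gene tables by identifier. The samples were 2 total RNA libraries, each made from 300 ng of RNA of whole adrenal gland tissue from 4-day-old male B6CASTF1/J mice, the F1 hybrid of a laboratory strain and a wild-derived strain. The labels give no treatment and no second condition. They name them biological replicates 1 and 2 with different biosamples and male numbers, but 1 donor label, so the spread between them is taken as that between animals only as far as the labels go. No test between conditions can be made from this design, and every difference below is between libraries.

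Steroid-producing P450 enzymes are heme proteins that add oxygen to cholesterol and its products, and they need electrons from a partner. Cyp11a1, Cyp11b1 and Cyp11b2 work in the mitochondrion with ferredoxin and its reductase, whereas Cyp21a1, Cyp17a1 and Cyp19a1 sit in the endoplasmic reticulum and draw on the reductase Por. Cyp11a1 makes pregnenolone, Cyp21a1 hydroxylates progesterone, Cyp11b1 completes corticosterone in the zona fasciculata and Cyp11b2 completes aldosterone in the zona glomerulosa. Cyp17a1 opens the route to cortisol and androgens and Cyp19a1 turns androgens into estrogens, steps that the mouse adrenal cortex is known to make little use of after birth.

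Cyp11b1 and Cyp11b2 lie side by side on chromosome 15, and Cyp21a1 has a pseudogene, Cyp21a2-ps, on chromosome 17, so their sequences decide how well reads can be told apart. The stretches of 60 bases, within the coding sequence of the first gene of each pair, in which the pair differs most are shown for that reason, with differing bases in capitals, and all are on the minus strand of mm10, as read from the annotated transcripts. The Cyp11b pair differs at 24 of 60 bases in exon 3 (chr15:74839246-74839305 and chr15:74853815-74853874). The Cyp21a pair differs at most at 5 of 60 bases (chr17:34801796-34801855 in exon 10 of Cyp21a1 and chr17:34719838-34719897 in exon 9 of the pseudogene).
Cyp11b1-201: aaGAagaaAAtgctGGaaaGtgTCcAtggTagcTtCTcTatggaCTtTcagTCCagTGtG
Cyp11b2-201: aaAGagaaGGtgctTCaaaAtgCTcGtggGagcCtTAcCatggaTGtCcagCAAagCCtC
Cyp21a1-201: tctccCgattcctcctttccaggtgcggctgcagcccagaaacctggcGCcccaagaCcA
Cyp21a2-ps-201: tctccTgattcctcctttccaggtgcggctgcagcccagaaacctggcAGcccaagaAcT

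The coding sequences of Cyp11b1 and Cyp11b2 were identical at 88.0% of 1496 aligned bases, with a longest identical run of 244 bases. The transcripts of Cyp21a1 and Cyp21a2-ps were identical at 97.5% of 1382 aligned bases, and the pseudogene lacks 1 stretch of 90 bases, the length of exon 2 of Cyp21a1. Exons 3 to 9 of Cyp21a1 have the same lengths as exons 2 to 8 of the pseudogene (143, 96, 102, 87, 201, 170 and 104 bases). Of the words of 31 bases in Cyp21a1-201, 39.9% also occurred in a transcript of another gene on either strand, 729 of 2028 of them in Cyp21a2-ps. For Cyp11b1-201 the share was 22.8%, with 404 of 3135 words in Cyp11b2, and for Cyp11b2-201 it was 25.3%, with all 404 in Cyp11b1. Cyp11a1-201 and Cyp17a1-201 shared no such word with another gene, and Cyp19a1-201 shared 1.75% of its words. Reads that lie within shared words do not name their gene, and for the pseudogene these are 53.9% of its words.

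**Figure D1:**
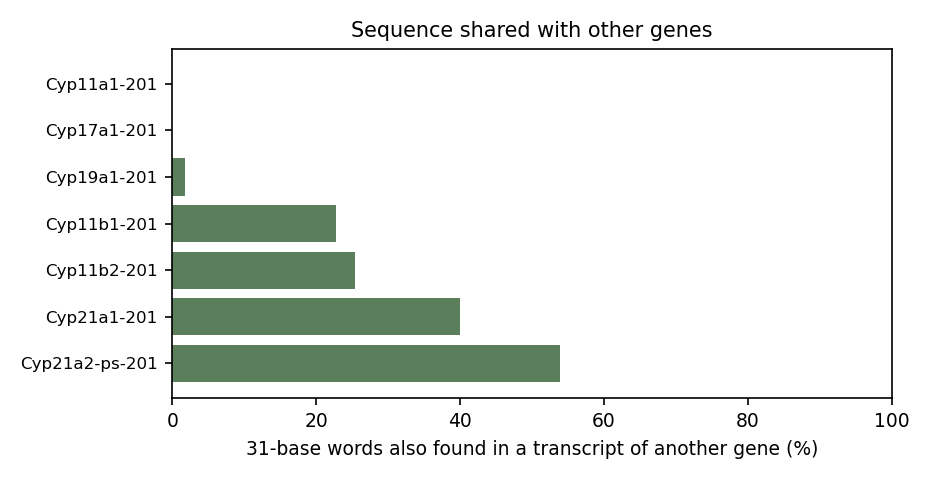
Percent of the 31-base words of each leading transcript that also occur in an annotated transcript of another gene, either strand (horizontal axis, 0 to 100%). Cyp11a1-201 and Cyp17a1-201 have none, the Cyp11b pair has 22.8% and 25.3%, and Cyp21a1-201 and its pseudogene have 39.9% and 53.9%.

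Of the 6 genes, 4 reached a mean of 1 TPM, a level scaled for transcript length and library depth, the threshold used for detection. In the alignment-free tables, and at a threshold of 0.1 TPM, Cyp17a1 passed too and the count was 5. The 6 together took 4156 TPM in replicate 1 against 3144 TPM in replicate 2, or 1.14% and 0.801% of the TPM of all protein-coding genes. The gene tables held 32231301 and 30292851 expected counts on annotated genes in replicates 1 and 2. Markers of the labelled organ were present: Nr5a1, a nuclear receptor that drives steroid-producing cells, had 161 and 155 TPM, and all 8 chromaffin genes of the medulla passed 1 TPM.

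The first step was carried by 1 abundant gene. Cyp11a1 (ENSMUSG00000032323.13, chromosome 9, 58006411 to 58027023, plus strand) had 934 TPM in replicate 1 against 830 TPM in replicate 2, from 63043 and 50736 counts. Its mean of 882 ± 73.7 TPM (SD, n = 2) ranked 25th among the 22028 protein-coding genes, between the mitochondrially encoded mt-Co3 at 882 ± 88.7 TPM and the ribosomal protein gene Rplp1 at 832 ± 59.7 TPM. The 2 libraries were close for this gene, which had the smallest difference among the detected members.

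Cyp21a1 was the highest of the 6 genes in both libraries. This gene (ENSMUSG00000024365.9, chromosome 17, 34801348 to 34804561, minus strand) had 2189 TPM in replicate 1 against 1579 TPM in replicate 2, a mean of 1884 ± 431 TPM, from 136057 and 86397 counts. It ranked 8th among protein-coding genes by its mean, next above Adh1, an alcohol dehydrogenase gene, at 1850 ± 107 TPM, and 8th and 14th in the separate libraries. Replicate 2 was the lower library. The level of Cyp21a1 exceeded that of Cyp11a1 by 2.34-fold in replicate 1 and 1.90-fold in replicate 2, a log2 ratio of 1.08 ± 0.21.

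The pseudogene of Cyp21a1 also received reads. Cyp21a2-ps (ENSMUSG00000092471.1, chromosome 17, 34719813 to 34722252, minus strand), annotated as an unprocessed pseudogene, lies 79095 bases from Cyp21a1. It had 111 TPM in replicate 1 against 94.3 TPM in replicate 2, a mean of 103 ± 11.7 TPM. The functional gene stood above it 19.8-fold in replicate 1 and 16.7-fold in replicate 2. In the alignment-free tables, which were made from the reads without an alignment, the pseudogene had 239 and 190 TPM and the ratio was 17.2-fold and 14.9-fold, so both kinds of table assign reads to it. The deposited posterior SD of the counts, a measure of how uncertain the sharing of reads was within a library, was the same for both genes, at 22.5 counts in replicate 1 and 18.9 counts in replicate 2. That is 0.477% and 0.522% of the pseudogene's counts. The SD does not cover reads placed wrongly because an allele differs from the reference, which was not tested.

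Of the enzymes of the last steps, Cyp11b1 far exceeded Cyp11b2. Cyp11b1 (ENSMUSG00000075604.5, chromosome 15, 74834125 to 74841643, minus strand) had 888 TPM in replicate 1 against 664 TPM in replicate 2, a mean of 776 ± 159 TPM. It ranked 32nd among protein-coding genes, between the ribosomal protein genes Rpl13a at 806 ± 49.0 TPM and Rpl23a at 737 ± 26.1 TPM. Cyp11b2 (ENSMUSG00000022589.7, chromosome 15, 74851010 to 74856318, minus strand), 9366 bases away, had 144 TPM in replicate 1 against 70.4 TPM in replicate 2, a mean of 107 ± 52.3 TPM. This was the widest spread relative to the mean among the 4 detected members, and its rank moved from 331st to 891st between the libraries. Cyp11b1 exceeded Cyp11b2 by 6.15-fold in replicate 1 and 9.43-fold in replicate 2.

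The deposited uncertainty of sharing reads within the Cyp11b pair was under 1% of the counts of either gene. The posterior SD of the counts was 41.8 for both genes in replicate 1 and 28.8 for both in replicate 2. This is 0.573% and 0.898% of the 7291 and 3206 counts of Cyp11b2. The alignment-free tables gave Cyp11b2 8829 and 4293 counts, a difference larger than these SDs. Here too the SD does not cover reads placed wrongly because an allele differs from the reference, which was not tested. In the alignment-free tables the ratio of Cyp11b1 to Cyp11b2 was lower in both libraries, at 4.85-fold and 6.79-fold, but replicate 2 again had the higher ratio. Cyp11b1-201 is 3165 bases long and Cyp11b2-201 is 1625 bases, both with 9 exons, and exons 2, 3, 4, 6, 7 and 8 have equal lengths. Most of the difference in length lies in exon 9, of 1742 bases in Cyp11b1 and 143 bases in Cyp11b2.

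Cyp17a1 was low and Cyp19a1 was without counts. Cyp17a1 (ENSMUSG00000003555.8, chromosome 19, 46667165 to 46673172, minus strand) had 0.50 TPM in replicate 1 against 0.49 TPM in replicate 2. These rest on 30 counts (exact Poisson 95% interval 20.2 to 42.8) and 22 counts (13.8 to 33.3), and the intervals cover counting error only. Cyp11a1 stood 1868-fold and 1693-fold above it in TPM. Cyp19a1 (ENSMUSG00000032274.9, chromosome 9, 54165937 to 54268110, minus strand) had 0 counts in both gene tables. Taking 3 counts as the limit that a count of 0 allows, this is up to 0.0931 and 0.0990 CPM (counts scaled to library size). The exact interval used for Cyp17a1 would reach 3.69 counts. Among 8 gonad genes, which would mark tissue that uses these enzymes, only Insl3, a Leydig cell hormone gene, passed a mean of 1 TPM, at 2.71 and 3.00 TPM, and Sox9 had 1.1 and 0.85 TPM. The gonad genes summed to 4.89 TPM in replicate 1 against 5.0 TPM in replicate 2, with the receptor gene Fshr at 0. Whether cells of such a kind contributed to the Cyp17a1 counts was not tested.

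**Figure D2:**
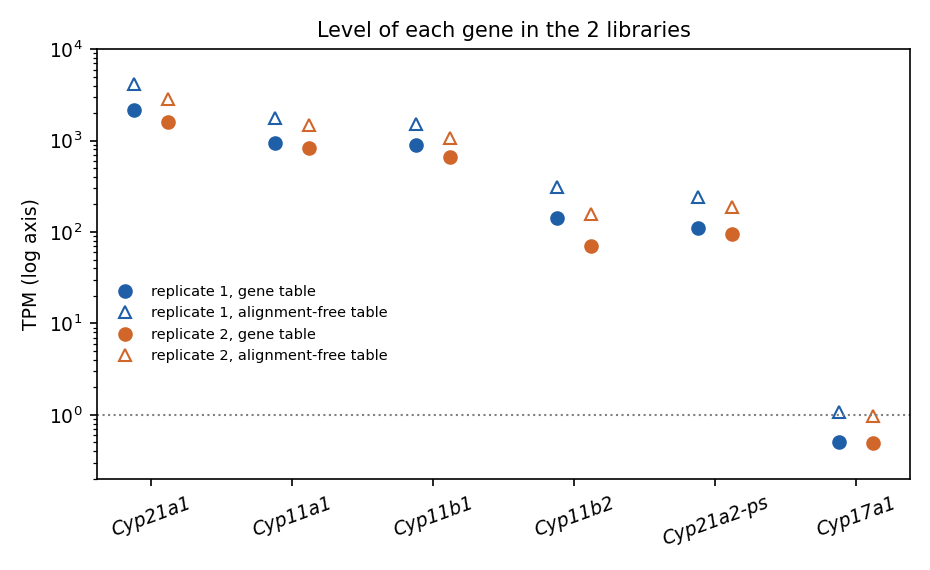
Level of each gene in TPM (vertical axis, log scale) in replicates 1 and 2, from the gene tables (filled circles) and the alignment-free tables (open triangles), with a dotted line at 1 TPM. Cyp21a1 is highest in both libraries, Cyp11a1 and Cyp11b1 overlap, Cyp11b2 and Cyp21a2-ps overlap, and Cyp17a1 is near the line; Cyp19a1 had 0 counts in the gene tables and cannot be drawn on a log axis.

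The order of levels was the same in both gene tables: Cyp21a1, Cyp11a1, Cyp11b1, Cyp11b2, Cyp17a1 and Cyp19a1. Cyp11a1 was above Cyp11b1 within each library, by a log2 ratio of 0.07 and 0.32 (mean 0.20 ± 0.18), while their levels overlapped between the libraries (830 to 934 TPM and 664 to 888 TPM). Without length scaling Cyp11b1 was the higher, at a log2 ratio of -0.39. Of the 6 ratios computed, that of Cyp21a1 to Cyp11b1 had the smallest SD, at 2.47-fold and 2.38-fold (log2 1.28 ± 0.04). Levels in the alignment-free tables were higher for each gene, and the cause was not tested.

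Each detected member was made up almost wholly of 1 transcript. Cyp11b1 and Cyp11b2 have a single annotated transcript each. Of the 4 transcripts of Cyp11a1, Cyp11a1-201, with 9 exons and the complete coding sequence of 1578 bases, took 97.1% and 96.9% of the gene's TPM in replicates 1 and 2 by the deposited percentages. Cyp11a1-204, annotated as retaining introns, took 2.12% and 2.56%. It holds all 899 bases of intron 3 and 1520 bases of intron 5. Cyp11a1-202, whose first exon overlaps the lincRNA gene Gm17322 by 145 bases on the same strand, took 0.24% and 0.10%, and Cyp11a1-203 took 0.50% and 0.40%.

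In Cyp21a1 the leading transcript took a smaller share. Cyp21a1-201, with 10 exons, took 93.9% of the gene's TPM in replicate 1 and 90.5% in replicate 2. Cyp21a1-203, a partial transcript that keeps intron 8 (68 bases, chr17:34802237-34802304), took 5.26% and 8.55%. The alignment-free tables gave it 3.74% and 6.59%, so replicate 2 had the larger share in both kinds of table. Cyp21a1-202, annotated as a processed transcript without a coding sequence, took 0.85% and 0.95% in the alignment-based tables and was listed at 0 in the alignment-free tables.

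The transcripts that keep introns differed less between the libraries than the spliced ones. Cyp21a1-203 had 115 TPM in replicate 1 against 135 TPM in replicate 2, whereas Cyp21a1-201 had 2056 and 1429 TPM. On counts scaled by the trimmed mean of M values (TMM), a library scaling, the log2 ratio of replicate 2 to replicate 1 was 0.14 for Cyp21a1-203 (95% counting interval 0.06 to 0.22) and -0.61 for Cyp21a1-201 (-0.63 to -0.60). Cyp11a1-204 had 0.01 (-0.08 to 0.10) and Cyp11a1-201 -0.26 (-0.28 to -0.25). The gap was 0.75 for Cyp21a1 and 0.27 for Cyp11a1, and 0.86 and 0.28 in the alignment-free tables. This contrast was chosen after its values were seen, and it is common in these libraries. Of 1931 genes with both kinds of transcript at a mean of 100 counts or more, 54.3% had a gap past 1.2-fold toward replicate 2, with a median of 0.31. The Cyp11a1 gap was thus ordinary, and 15.5% of those genes had a larger gap than Cyp21a1. The intervals leave out the uncertainty of sharing reads between transcripts of 1 gene or of different genes. Of the words of 31 bases in Cyp21a1-203, 44.1% also occurred in Cyp21a2-ps.

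**Figure D3:**
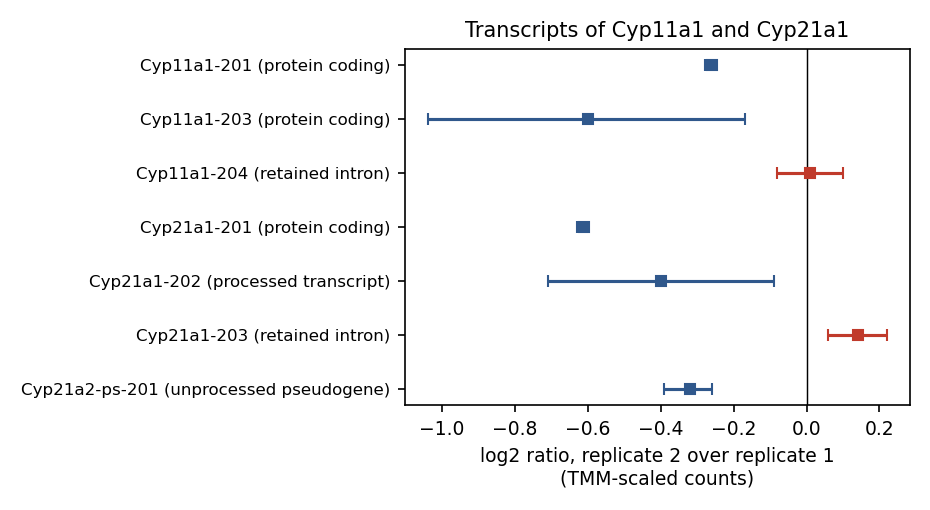
Log2 ratio of replicate 2 over replicate 1 in TMM-scaled counts (horizontal axis) for transcripts of Cyp11a1 and Cyp21a1 and the pseudogene, with 95% counting intervals. The transcripts annotated as retaining introns (red) lie at 0.01 and 0.14, and Cyp11a1-201 and Cyp21a1-201 at -0.26 and -0.61.

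Isoforms of the low members could not be resolved at this depth. Cyp17a1-201, with 8 exons, took 81.5% and 59.9% of the Cyp17a1 TPM. Cyp17a1-204, with 7 exons, took 18.5% and 16.0%, from 7.02 and 5.38 counts. Cyp17a1-202 was listed at 24.0% in replicate 2 on 1.65 counts and at 0 in replicate 1. Cyp17a1-203 was listed at 0 in both alignment-based tables. None of the 5 transcripts of Cyp19a1 had a count there.

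Of the genes that overlap the members or the pseudogene, 3 had under 1 TPM and Tnxb had more. Tnxa, a pseudogene antisense to Cyp21a1 with 102 shared exonic bases, had 0.72 and 0.56 TPM. Gml2, antisense to Cyp11b1 over 285 exonic bases, had 0 counts in both libraries. Gm17322 had 0.85 and 0.61 TPM. Tnxb shares 3 bases with Cyp21a2-ps on the opposite strand and had 10.5 and 11.7 TPM, from 3932 and 3948 counts. Use of strand in the counting was not stated in the labels.

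All 4 detected members were lower in replicate 2, by unequal amounts. After TMM scaling the log2 ratio of replicate 2 to replicate 1 was -0.25 for Cyp11a1 (95% counting interval -0.27 to -0.24) and -0.51 for Cyp11b1 (-0.52 to -0.50). It was -0.60 for Cyp21a1 (-0.61 to -0.58), or 1.51-fold, and -1.13 for Cyp11b2 (-1.19 to -1.07), or 2.18-fold. For Cyp17a1 it was -0.38 with an interval from -1.25 to 0.45, so a difference was not detectable at this depth. The pseudogene Cyp21a2-ps stood at -0.32 (-0.39 to -0.26). Counting error was small for the abundant genes, but 2 libraries give no further estimate of the spread between animals.

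Past 1.5-fold, 2 of the 5 members kept by the filter on low counts were lower in replicate 2, against 2.93% of the 18160 kept genes, and past 2-fold it was 1, Cyp11b2, against 0.710%. The median log2 ratio was -0.51 over the 5 kept members and 0.00 over all kept genes. Cyp19a1 did not pass the filter. Among the 549 protein-coding genes at 100 TPM or more, which include 4 of the members, the median was -0.03 and 5 genes, or 0.911%, were lower by more than 1.5-fold, and 2, or 0.364%, by more than 2-fold. These were Akr1c18, Cyp11b2, the gap junction gene Gja1, the dynein light chain gene Dynll1 and Cyp21a1, named after their values were seen. Cyp21a1 lies at the edge of this limit, and with library sizes from spike-ins or total counts its log2 ratio was -0.57, under 1.5-fold. Cyp11b2 fell short of 2-fold in the alignment-free tables, at -0.98.

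With only 2 libraries a gene's pattern is a single ratio, so likeness to the members is a weak description. The 5 protein-coding genes at 100 TPM or more whose log2 ratio was closest to -0.55, the median of the 4 members at that level, were Glul (-0.56), Hsd3b1 (-0.56), Me1 (-0.58), Slc6a6 (-0.48) and Sin3b (-0.47). Hsd3b1 is the dehydrogenase that acts between Cyp11a1 and Cyp21a1, Glul encodes glutamine synthetase and Me1 malic enzyme. Of 545 such genes outside the family, 6 were at or below that median.

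Partners and suppliers of the P450 enzymes were compared between the same libraries. The ferredoxin gene Fdx1 had 404 TPM in replicate 1 against 338 TPM in replicate 2, and its reductase gene Fdxr 249 and 216 TPM, log2 ratios of -0.32 and -0.33 in TMM-scaled counts, beside -0.25 for Cyp11a1, which they serve. Por, the reductase for Cyp21a1, had 60.9 and 67.3 TPM, a log2 ratio of 0.02. Of the 9 electron transfer genes, 0 passed 1.5-fold in either direction, where 2.93% of all kept genes were lower and 8.69% higher by that much, and their median log2 ratio was -0.17. Of the 11 genes of cholesterol supply, 0 passed 1.5-fold, with a median of -0.07. Counts of 0 in lists of this size are near those shares. They include Star, which moves cholesterol into the mitochondrion (864 and 790 TPM), and the lipoprotein receptor gene Scarb1 (225 and 232 TPM). Fdx1 and Fdxr were thus lower in replicate 2 and Por near even, all short of 1.5-fold. Fdx1l, of the same electron transfer list, was also near even, at a log2 ratio of 0.05.

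Other steroid enzymes were more mixed. Of the 11 dehydrogenase and reductase genes, 8 passed the filter, with a median log2 ratio of -0.39. Akr1c18, a hydroxysteroid dehydrogenase gene that marks the X-zone, had 393 and 158 TPM, a log2 ratio of -1.40, and was the only one of the 8 lower by more than 1.5-fold, as were 2.93% of all kept genes. Hsd11b1, which regenerates active glucocorticoid and is abundant in liver, had 3.60 and 14.2 TPM, a log2 ratio of 1.89, and Hsd3b2 had 0.18 and 0.37 TPM, a log2 ratio of 1.03. These 2 were higher by more than 2-fold, as were 3.61% of all kept genes. Hsd3b2 was under 1 TPM and rests on 13 and 26 counts, and no counting interval was computed for it. Hsd3b1 had 3432 and 2477 TPM, and Hsd3b3, outside the filter, had 0.16 and 5.42 TPM.

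Most regulators of the P450 genes were lower in replicate 2. Of 20 such genes, 19 passed the filter, 15 of them lower and 4 higher, with a median log2 ratio of -0.15. Past 1.5-fold, 2 were lower (Nr4a1 and Agtr1b) and 2 higher (Nr5a2 and Gata4), where 2.93% of all kept genes were lower and 8.69% higher by that much. Nr4a1, an immediate early nuclear receptor gene, had 46.7 and 28.0 TPM, a log2 ratio of -0.82. The related genes Nr4a2 and Nr4a3 had log2 ratios of 0.01 and -0.43. The angiotensin receptor gene Agtr1b had 5.42 and 3.24 TPM, a log2 ratio of -0.83. Nr5a2 and Gata4 were low, at 0.61 and 1.2 TPM and at 0.77 and 1.53 TPM. Nr5a1 had a log2 ratio of -0.15. Relative to Nr5a1 in the same library, a scaling chosen after the data were seen, Cyp21a1 stood at 13.6 and 10.2, Cyp11a1 at 5.81 and 5.35, Cyp11b1 at 5.53 and 4.28 and Cyp11b2 at 0.898 and 0.453.

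Genes of the cortical zones were compared with the P450 gene of each zone. The 12 zona glomerulosa genes all passed 1 TPM and had log2 ratios from -0.83 to 0.05 with a median of -0.21, all above the -1.13 of Cyp11b2. The highest of them, the potassium channel gene Kcnk3 and the adaptor gene Dab2, had 296 and 255 TPM and 169 and 164 TPM. The 7 zona fasciculata genes had log2 ratios from -0.56 to -0.05 with a median of -0.23. Cyp11b1 at -0.51 lay near the lower end of that range. Only Hsd3b1 at -0.56 was lower, and the next gene, Mrap, was at -0.50. The 4 X-zone genes had log2 ratios from -1.40 to -0.22 with a median of -0.51. Their summed level was 486 and 227 TPM, of which Akr1c18 alone had 393 and 158 TPM. In bulk tissue, fewer cells of a type and less RNA per cell cannot be told apart.

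Genes of other tissues also differed between the libraries, and these values stand beside the differences of the P450 genes. Each of the 10 liver genes had its higher level in replicate 2, by a median of 4.77 in log2, with a summed level of 233 TPM in replicate 1 against 6095 TPM in replicate 2. The 5 erythroid genes had a median of 0.79 (1700 and 3128 TPM in sum) and the 5 skeletal muscle genes 0.81 (508 and 953 TPM). The 5 adipocyte genes had a median of 0.15, with log2 ratios from -1.1 to 0.65 and sums of 629 and 779 TPM. The lowest of these ratios was that of Lep, from 101 and 45 counts. Kidney genes, with 2 of 6 over 1 TPM, had a median of -1.50 over 5 kept genes and sums of 7.41 and 3.00 TPM. The 8 chromaffin genes had a median of -0.24, with log2 ratios from -0.30 to -0.11 and sums of 2174 and 1968 TPM, close to Cyp11a1 at -0.25. No gene of these lists other than the gonad gene Fshr was at 0 in both libraries. Their part in the differences of the P450 genes was not tested.

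**Figure D4:**
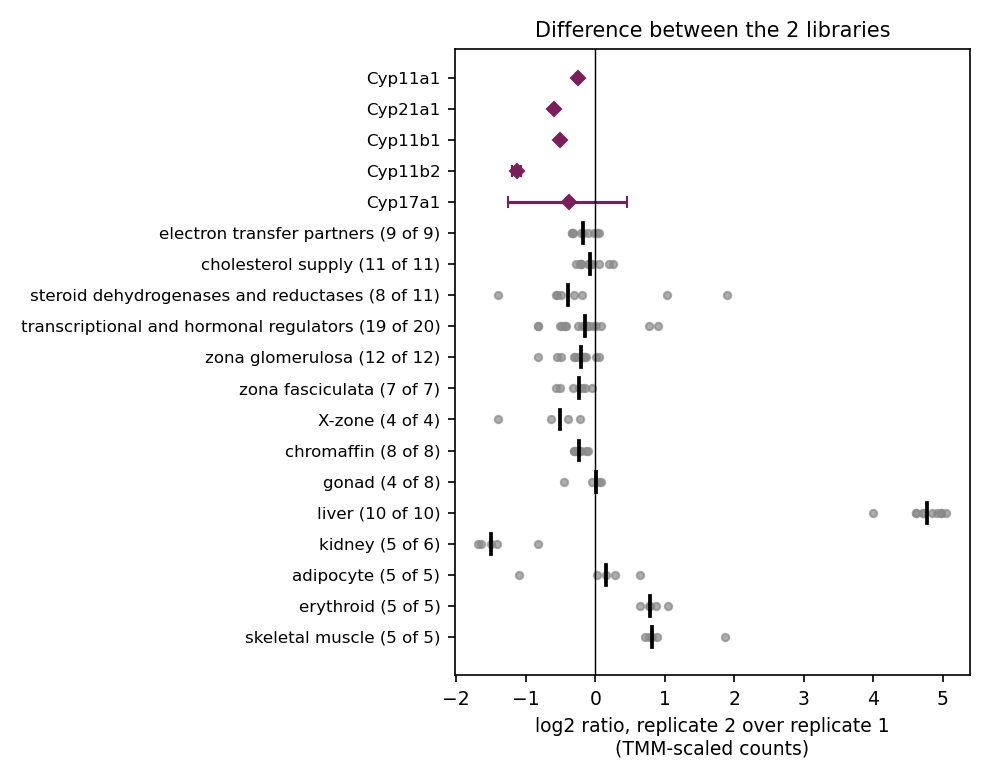
Log2 ratio of replicate 2 over replicate 1 in TMM-scaled counts (horizontal axis) for the members (diamonds, 95% counting intervals) and for each gene of the lists that passed the filter (grey points, with the list's median as a bar and the number plotted out of the list's size). The members lie between -1.13 and -0.25, the cortical lists have medians between -0.51 and -0.21, and the liver genes lie between 3.99 and 5.05.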

How the data were processed

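Total RNA of adrenal glands was sequenced in 2 libraries of 1 group. Per the descriptions deposited with the files, all tables were made per library on mm10 with GENCODE release M21. The authors' gene and transcript tables come from a transcriptome alignment and hold expected counts, TPM, a posterior SD of the count and, for transcripts, the deposited percent of a gene's TPM. The alignment-free tables, deposited with estimated counts and TPM, come from the reads and an index. The programs, not given in the sources used here, may affect the values. Expected counts are estimates and were rounded before ratios were taken. Numbered rows that name no gene (3 and 2 counts) and spike-ins (1.06% of counts in each library) were left out.

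Genes were filtered with filterByExpr (18160 kept) and libraries scaled by TMM, both in edgeR 4.0.16 under R 4.3.3, and log2 ratios used a prior count of 0.5. DESeq2 1.42.0 size factors, spike-in counts and total counts were alternatives. The ratio calculation was tested on simulated data. Counting intervals at 95% are exact (binomial for ratios, Poisson for counts). No p-value was computed, since there is 1 group. Symbols, exons, coordinates (counted from 1) and transcript sequences are from GENCODE M21, and pairs were aligned globally. A symbol shared by several genes was taken as the gene with most TPM. All genes of the 14 lists were found.

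The 6 members and the lists were chosen with earlier results of these data known. Named genes were the members, their pseudogene and overlapping genes, at most the 4 highest genes of each list and those past 2-fold, the nearest genes in level and the 5 nearest in ratio. Others were named after their values were seen, such as Por, Nr5a1, Nr4a1, Nr4a2, Nr4a3, Agtr1b, Nr5a2, Gata4 and Hsd3b3. RefSeq promoter windows (GRCm38.p6) matched 2 members, Cyp11a1 and Cyp19a1. Promoter and protein sequences were not used here.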

Additional observations from a re-analysis of the deposited data

Results flagged for a closer look

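Cyp19a1 had 0 counts in both gene tables, but the alignment-free tables listed 10.6 estimated counts in replicate 1 and 6.39 in replicate 2, above the 3 counts that a count of 0 allows. They correspond to 0.236 and 0.162 TPM. In replicate 1 all were on Cyp19a1-201, and in replicate 2 there were 4.30 on Cyp19a1-201 and 2.10 on Cyp19a1-205, a transcript of 1 exon annotated as a retained intron. Cyp19a1-201 shares 41 of its 2343 words of 31 bases with other genes, all outside the coding sequence. Where these counts come from was not tested.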

How the results depend on the processing

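Of 109 alternative values for 25 results, 65 stayed within the spread between replicates, the counting interval or 1.5 times a count, 42 moved and 2 changed sign. The 65 include every value obtained by leaving out 1 library. With 2 libraries each value always lies within the SD of their mean, so these could not move and say nothing about robustness. The count of detected members also could not rise past 1.5 times its value, even with every member detected. The cause of a move or a change of sign was not tested unless the setting itself gives it. Levels depend on the scale. Cyp11a1, Cyp21a1, Cyp11b1, Cyp11b2, Cyp17a1 and Cyp19a1 had 1643, 3478, 1291, 235, 1.02 and 0.199 TPM in the alignment-free tables, and the first 5 had 2334, 5006, 2060, 287 and 1.31 TPM when scaled over protein-coding genes only. Without length scaling the log2 ratio of Cyp11a1 to Cyp11b1 changed sign to -0.39, and those of Cyp11b1 to Cyp11b2, Cyp21a1 to Cyp11b1, Cyp11a1 to Cyp17a1 and Cyp21a1 to Cyp21a2-ps were 3.94, 0.55, 11.10 and 4.71. The last 3 were 1.43, 10.65 and 4.00 in the alignment-free tables, and Cyp11a1 to Cyp17a1 was 9.20 with 1 TPM added. Between the libraries, the log2 ratios of Cyp11a1, Cyp21a1 and Cyp11b1 were -0.22, -0.57 and -0.48 with spike-in counts and also with total counts. In gene TPM those of Cyp11a1, Cyp21a1, Cyp11b1 and Cyp11b2 were -0.17, -0.47, -0.42 and -1.04, and relative to Nr5a1 -0.12, -0.42, -0.37 and -0.99. Cyp21a1 and Cyp11b2 had -0.53 and -0.98 in the alignment-free tables, and Cyp17a1 changed sign to 0.02 relative to Nr5a1. Without the filter on low counts, 3847 genes were lower and 6266 higher in replicate 2 past 1.5-fold, and 2749 and 4391 past 2-fold, in place of 532, 1578, 129 and 655. The leading transcripts of Cyp11a1, Cyp21a1 and Cyp17a1 took 97.7%, 94.8% and 52.5% in the alignment-free tables. Scaling to Nr5a1 was chosen after seeing the data. Summing the counts of Cyp21a1 and its pseudogene, also chosen after seeing the data, gave -0.59. Leaving out either library gives the values of the other, 830 to 934 TPM for Cyp11a1 and 70.4 to 144 TPM for Cyp11b2. Depth limits Cyp17a1, Cyp19a1 and their transcripts. No paired analysis was possible because there is 1 group.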

Other observations

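Other cytochrome P450 genes were taken by symbol, as Cyp with a number and a letter, and formed a small part of the transcripts so named. P450 genes with other kinds of symbol were not counted. The 6 steroid-producing genes took 95.4% of the TPM of the protein-coding genes with such symbols in replicate 1 and 89.0% in replicate 2. The other 93 genes, of which 40 passed 1 TPM, summed to 198 and 390 TPM. Of the 37 that passed the filter, 14 were higher in replicate 2 by more than 2-fold and 0 lower, where 3.61% of all kept genes were higher and 0.710% lower by that much, with a median log2 ratio of 0.31, against -0.51 for the steroid-producing genes. Cyp2f2, which marks the X-zone, had 76.2 TPM in replicate 1 against 52.3 TPM in replicate 2. Cyp2e1 and Cyp2d26, known as liver genes, had 1.33 and 48.7 TPM and 1.17 and 30.2 TPM, in the direction of the liver list. Cyp4f13, Cyp2d22 and Cyp1b1 were near even, with log2 ratios of -0.06, -0.11 and 0.07.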
